A study of Mus musculus with 8 samples.

Results

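The fatty acid elongases Elovl1, Elovl2, Elovl3, Elovl5, Elovl6 and Elovl7 and the desaturases Fads1 and Fads2 were followed over 8 mouse liver arrays. The members are the 8 of 34768 named genes and transcripts on the array whose gene name in the deposited scanner files was one of these symbols. They were chosen with their values on these arrays known, with the difference between Elovl3 and the other 7 genes in view. Their contrasts are therefore given as values, and the calls of the fit over all features are a description of them that supports nothing. The 8 genes had 10 probes, and 9 of these were well above background on all 8 arrays. All 8 members passed the detection filter, with Elovl7 well above background on 5 of 8 arrays.

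The livers came from male mice in which fibrosis had been induced for 5 weeks with TAA, the usual abbreviation of thioacetamide, or with CCl4, carbon tetrachloride. Both are agents that injure hepatocytes. Afterwards a miR-29a oligonucleotide or a negative control oligonucleotide (NC) was given every 3 days, over 2 weeks or over 1 week. Each agent thus had 4 groups, with miR-29a and with NC at 2 weeks and with miR-29a and with NC at 1 week, and each group had 1 array. All 8 groups had received an injuring agent and repeated oligonucleotide injections. The sources used here give no strain, no age, no hour of collection, and no word on pooling of animals, and untreated liver was not analysed here. With 1 array per group, the spread below is that of the residuals of a fit over all 8 arrays, which may be partly technical.

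Long-chain fatty acids are lengthened in the endoplasmic reticulum by a repeated cycle of steps. The elongases catalyse the first, rate-limiting condensation and set which chains enter, and the other steps are shared. ELOVL1, ELOVL3, ELOVL6 and ELOVL7 act mainly on saturated and monounsaturated chains, and ELOVL2 and ELOVL5 on polyunsaturated ones. FADS1 and FADS2 insert double bonds in front of existing ones on the route to arachidonic and docosahexaenoic acid. In mouse liver, Elovl3 is known for a strong daily rhythm and for higher expression in males, and Elovl5, Elovl6, Fads1 and Fads2 are known targets of SREBP-1c.

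The oligonucleotide under study was miR-29a, whose mature strand in RefSeq (GRCm38.p6, chr6:31062673-31062694, minus strand) is shown with its seed, bases 2 to 8, in capitals because the reverse complement of that seed was looked for in the probes.
mmu-miR-29a-3p: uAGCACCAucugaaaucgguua
The letters TGGTGCT, which pair with this seed, occurred in 0 of the 10 member probes and in 0.557% of all 55681 probes. A probe covers 60 bases, so this says nothing about the rest of a transcript.

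The first 30 bases, 5′ to 3′ on the transcript strand, of the probes of the 4 elongases whose values are described at most length show how different the measured stretches are. Their positions in mm9, the build of the files, are chr19:46209762-46209821 (plus strand) for Elovl3, chr9:77832205-77832264 (plus) for Elovl5, chr3:129341248-129341307 (plus) for Elovl6 and chr13:109073556-109073615 (plus) for Elovl7. The brightest probes of the other members lie at chr4:118105163-118105222 (plus, Elovl1), chr13:41277884-41277943 (minus, Elovl2), chr19:10270530-10270589 (plus, Fads1) and chr19:10137760-10137819 (minus, Fads2). Capitals mark AATAAA, the polyadenylation signal.
Elovl3: ggcctggtaggcgcttAATAAAtgtctttt
Elovl5: ctcaatacaaaaattataacatttgatagt
Elovl6: cctaggccctaaacccatattcagagggaa
Elovl7: atgatttgtctcaacggttaatgaacgctt
The Elovl3 probe was the 1 of 10 member probes with AATAAA, which 10.1% of all probes hold. The longest run of bases shared by probes of different members was 8.

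Levels are given as the log2 processed signal minus the 75th percentile of the same array, so that 0 is the level of that percentile, and they are not compared between probes. Between 43.95% and 48.38% of the 59305 non-control spots per array were well above background and 0 were saturated. The 75th percentile lay between 136 and 219 signal units. All arrays were on 1 slide and in 1 scan, with the 4 TAA arrays in one row and the 4 CCl4 arrays in the other, and with the 2-week and 1-week arrays in different columns. Agent and slide row, and week and slide columns, cannot be told apart. Of the 10 hepatocyte markers, 9 were on the array and all 9 were well above background on all 8 arrays. One array stood apart from the others in genes that are no members. On the TAA 1-week NC array the summed signal of 12 acute phase genes was 10190 times the 75th percentile, against 2081 to 2727 on the other 7. The summed signal of 8 neutrophil markers was 332.9 there and 8.13 to 12.3 on the others, with all 8 well above background. That of 8 Kupffer cell markers was 303.4 there and 37.8 to 69.6 on the others. The main Elovl3 contrasts and most list counts at 1 week are given with and without this array. Other values that include it are mostly given with it alone.

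Elovl3, the elongase of saturated and monounsaturated very long chains, ranged further than the other members. Its level in TAA livers was 3.50 with miR-29a and 4.37 with NC at 2 weeks, and 1.89 with miR-29a and −2.22 with NC at 1 week. In CCl4 livers it was 4.65 with miR-29a and 5.35 with NC at 2 weeks, and 2.87 with miR-29a and 2.92 with NC at 1 week. The 4 arrays from 2 weeks were the 4 highest, and the TAA 1-week NC array was far below the rest, though still well above background. From the lowest to the highest array the range was 7.57 on the log2 scale, 190-fold in signal. Of the 18534 features tested, 5 (0.027%) had a larger range, and the median range was 0.93. Over the 7 arrays without TAA at 1 week with NC, the range of Elovl3 was 3.46, 11.0-fold, with 220 features (1.19%) having a larger one and a median range of 0.79. In order from high to low, neighbouring arrays differed by 0.05 to 0.97, less than the residual SD of 1 array in the fit, 1.27. The exception was the last step, between both TAA arrays of 1 week, of 4.11. That SD includes the low TAA 1-week NC array, so it is not the spread of the other 7 arrays. Leaving this array out lowered the standard error (SE) of the Elovl3 week difference in CCl4 livers from 1.25 to 0.23.

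**Figure D1:**
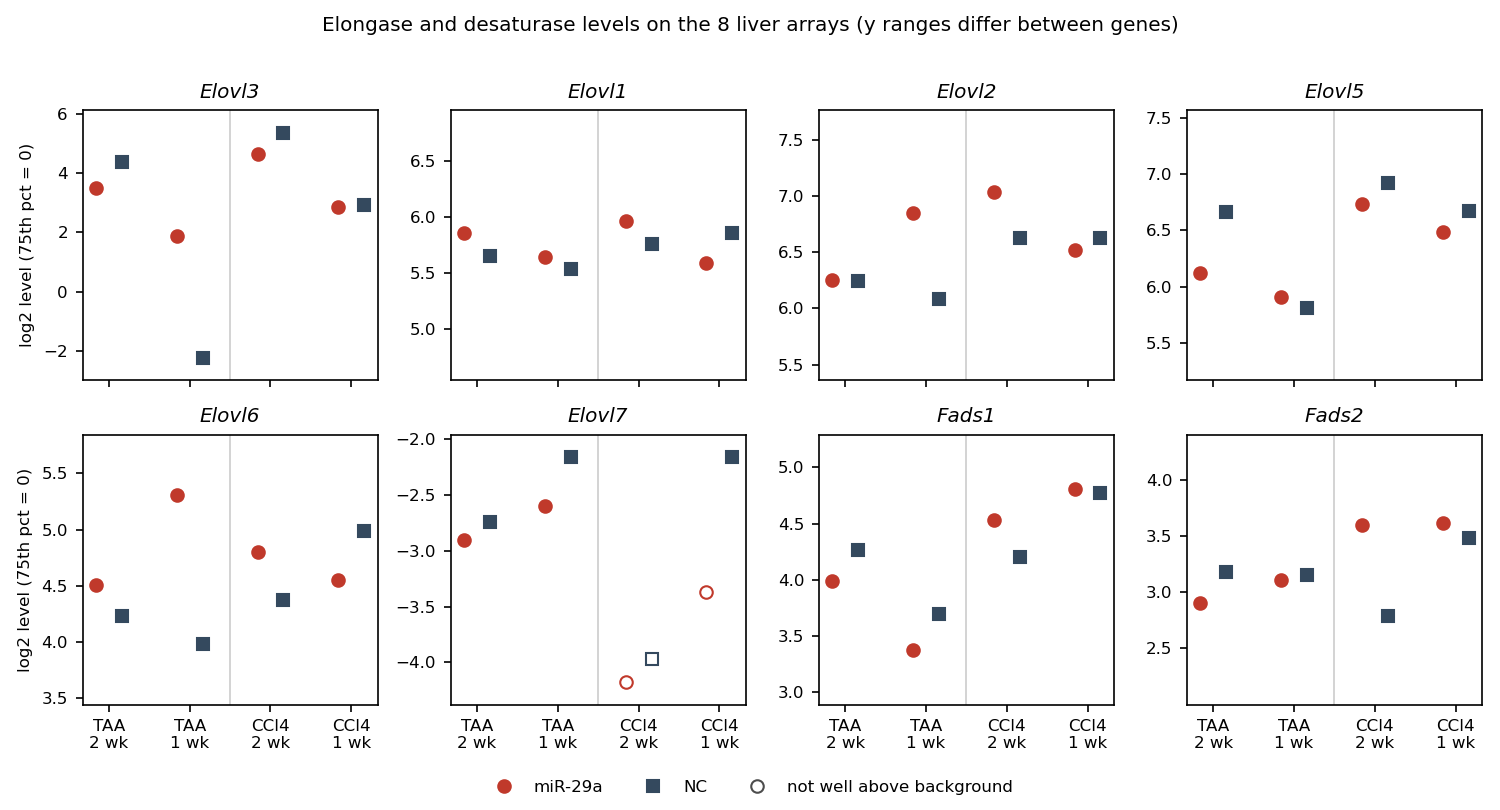
Log2 level (array 75th percentile at 0) of each of the 8 genes on the 8 arrays, with TAA to the left of CCl4, 2 weeks to the left of 1 week, miR-29a as circles and NC as squares, and open symbols where the probe was not well above background. Elovl3 runs over 7.57 log2 units and is lowest on the TAA 1-week NC array, while the other 7 genes run over 0.42 to 2.02.

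Among the other elongases of saturated chains, Elovl1, which makes very long chains for sphingolipids, was the steadiest. Its levels lay between 5.54 (TAA 1-week NC) and 5.96 (CCl4 2-week miR-29a), a range of 0.42, and 92.5% of features had a larger one. Elovl6, which lengthens the palmitate made by fatty acid synthase, had 4.51, 4.23, 5.31 and 3.98 in TAA livers (miR-29a then NC at 2 weeks, miR-29a then NC at 1 week) and 4.80, 4.38, 4.56 and 4.99 in CCl4 livers in the same order. Its highest and lowest arrays were both TAA 1-week arrays. Elovl7, whose role in liver is little known, was dim. It had −2.91, −2.74, −2.60 and −2.16 on the TAA arrays in that order, each well above background. On the CCl4 arrays it was well above background on the 1-week NC array alone, at −2.16, and the other 3 had −4.18, −3.97 and −3.37.

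Elovl2 and Elovl5 act one after the other on polyunsaturated chains. Elovl2 had 6.25, 6.25, 6.85 and 6.08 in TAA livers and 7.04, 6.62, 6.52 and 6.63 in CCl4 livers, in the same order. Elovl5 had 6.12, 6.66, 5.91 and 5.81 in TAA livers, and 6.73, 6.92, 6.49 and 6.67 in CCl4 livers. The highest TAA array for Elovl5, the 2-week NC one, was level with the CCl4 1-week arrays, and the other 3 were below all CCl4 arrays. The desaturase Fads1 had 3.99, 4.27, 3.38 and 3.70 in TAA livers and 4.54, 4.21, 4.81 and 4.77 in CCl4 livers. Fads2, which acts before Fads1, had 2.90, 3.18, 3.11 and 3.15 in TAA livers and 3.60, 2.79, 3.62 and 3.48 in CCl4 livers. The 1-week arrays of both desaturases were all lower in TAA livers than in CCl4 livers, and the 2-week arrays overlapped.

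Elovl1 and Fads2 each had a second, dimmer probe. Over the 8 arrays the 2 probes of Fads2 varied alike (Pearson r 0.820, Spearman rho 0.857), and those of Elovl1 less so (r 0.518, rho 0.452). In bulk liver, fewer cells of a type and less RNA per cell cannot be told apart.

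The first comparison asks how livers after TAA differed from livers after CCl4. Over the 4 matched pairs the mean difference in Elovl3 was −2.06 ± 0.90 (SE of the fit). By pair it was −1.15 (2-week miR-29a), −0.99 (2-week NC), −0.97 (1-week miR-29a) and −5.14 (1-week NC). All 4 pairs were lower in TAA livers, but the levels overlapped, and the mean was −0.94 with the TAA 1-week NC array left out. Elovl5 was the other member lower in TAA livers in all 4 pairs, with differences of −0.86 to −0.26 and a mean of −0.58 ± 0.15. Of all features, 27.1% were lower in TAA livers in all 4 pairs, and the median difference over all features was −0.13.

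Each of the other 6 members had at least 1 pair in each direction. The mean differences were −0.75 ± 0.25 for Fads1, −0.34 ± 0.19 for Elovl2, −0.29 ± 0.20 for Fads2, −0.17 ± 0.27 for Elovl6 and −0.11 ± 0.13 for Elovl1. Those of Elovl1 and Elovl6 turned to 0.19 and 0.08 with quantile normalization. Elovl7 was higher in TAA livers in 3 of 4 pairs, and within 0.01 of 0 in the 1-week NC pair. At 2 weeks neither CCl4 array was well above background for Elovl7. Its CCl4 level was taken as the lowest signal well above background on each array or the probe's own signal, whichever was higher. Elovl7 was then 1.90-fold higher in TAA livers. On the CCl4 2-week NC array the probe's own signal was the higher (−3.97 against −4.45), so 1.90 is not a firm lower bound. The difference in Elovl3 was 1.78 below the median of the other 7 members, on the log2 scale, and was the lowest of the 8 in 3 of 4 pairs. In the 1-week miR-29a pair Fads1, at −1.44, was lower than Elovl3.

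Across all features, limma's moderated test was used with Benjamini-Hochberg adjustment, and a feature is referred to as called where its adjusted p was under 0.05. Between the agents 0 of 8 members and 0 of 18534 features (0%) were called. At an unadjusted p of 0.05, 1 member was higher and 2 were lower in TAA livers, beside 9.02% and 19.7% of all features. The higher one was Elovl7, which was well above background on only 1 CCl4 array. The members were picked with these contrasts known, so such counts are given as a description and support nothing about them.

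The agent difference depended on the week over the array as a whole, with 1819 of 18534 features (9.81%) past an adjusted p of 0.05 for the agent by week term, and 0 of the 8 members. At an unadjusted p of 0.05 there was 1 member, Fads1, beside 30.4% of features. The agents were therefore also set against each other at each week, over 2 arrays each. At 1 week, Fads1 (−1.25 ± 0.20) and Elovl5 (−0.72 ± 0.18) were past the threshold and lower in TAA livers, 2 of 8 members beside 23% of all features called lower and 12.6% called higher. At 2 weeks their differences were −0.24 ± 0.20 and −0.44 ± 0.18, and 0 of 18534 features (0%) were called, with 11.3% at an unadjusted p of 0.05, 1 member (Elovl7) among them. Neither CCl4 array of 2 weeks was well above background for Elovl7. Fads1 was past the 1-week threshold alone with 1 of these arrays left out: TAA 1-week NC, CCl4 1-week NC or either CCl4 2-week array, and with quantile normalization. Neither was past it without the CCl4 1-week miR-29a array. Elovl3 joined both with the array of TAA at 1 week with miR-29a left out, and 5 members were with scaling on the array median, which moved the median of all features to −0.75. Elovl3 differed by −3.06 ± 1.25 at 1 week and by −1.07 ± 1.25 at 2 weeks, and its agent by week term was 1.99 ± 1.76. With the TAA 1-week NC array left out, it differed by −0.73 ± 0.30 at 1 week, and the agent by week term turned to −0.34 ± 0.38.

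The second comparison asks what changed between 1 and 2 weeks after the end of induction. Elovl3 was higher at 2 weeks in all 4 pairs, with a mean difference of 3.10 ± 0.90, 8.58-fold. By pair it was 1.61 (TAA miR-29a), 6.58 (TAA NC), 1.78 (CCl4 miR-29a) and 2.43 (CCl4 NC). The lowest 2-week array, at 3.50, was above the highest 1-week array, at 2.92. Elovl3 was the 1 member whose weeks did not overlap, beside 1.22% of all features with all 2-week arrays higher. Leaving out the TAA 1-week NC array gave a mean of 1.98. Within agents, on all arrays, the difference was 4.09 ± 1.25 in TAA livers and 2.11 ± 1.25 in CCl4 livers. With that array left out it was 1.77 ± 0.30 in TAA livers and 2.11 ± 0.23 in CCl4 livers.

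Each of the other 7 members had weeks that overlapped. Elovl5 was higher at 2 weeks in all 4 pairs, by 0.21 to 0.85, with a mean of 0.39 ± 0.15. Of all features, 6.04% were higher at 2 weeks in all 4 pairs. Elovl7 was lower at 2 weeks in both TAA pairs (−0.31 with miR-29a and −0.58 with NC). In CCl4 livers it was well above background on neither array of the miR-29a pair and on the 1-week array alone of the NC pair, so that no size is given there. Fads1 was higher at 2 weeks in both TAA pairs (0.62 with miR-29a and 0.57 with NC) and lower in both CCl4 pairs (−0.27 and −0.57). Elovl6 and Elovl2 had 2 pairs in each direction, with means of −0.23 ± 0.27 and 0.02 ± 0.19. Elovl1 and Fads2 had means of 0.15 ± 0.13 and −0.22 ± 0.20. The mean difference in Elovl3 exceeded the median of the other 7 by 3.08, and it was the highest of the 8 in every pair. By limma, 0 of 8 members and 0 of 18534 features (0%) were called, and at an unadjusted p of 0.05 it was 2 members higher and 1 lower, beside 2.71% and 2.47% of features. Within CCl4 livers 0 members were called beside 1.08% of features, with 1 member and 18.5% of features at an unadjusted p of 0.05. Within TAA livers it was 0 beside 0%, with 3 members and 27% of features at an unadjusted p of 0.05. Elovl7 was the 1 lower member between the weeks and the 1 member within CCl4 livers. Those 2 counts thus rest on CCl4 arrays mostly not well above background for it, and nothing is read from them.

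**Figure D2:**
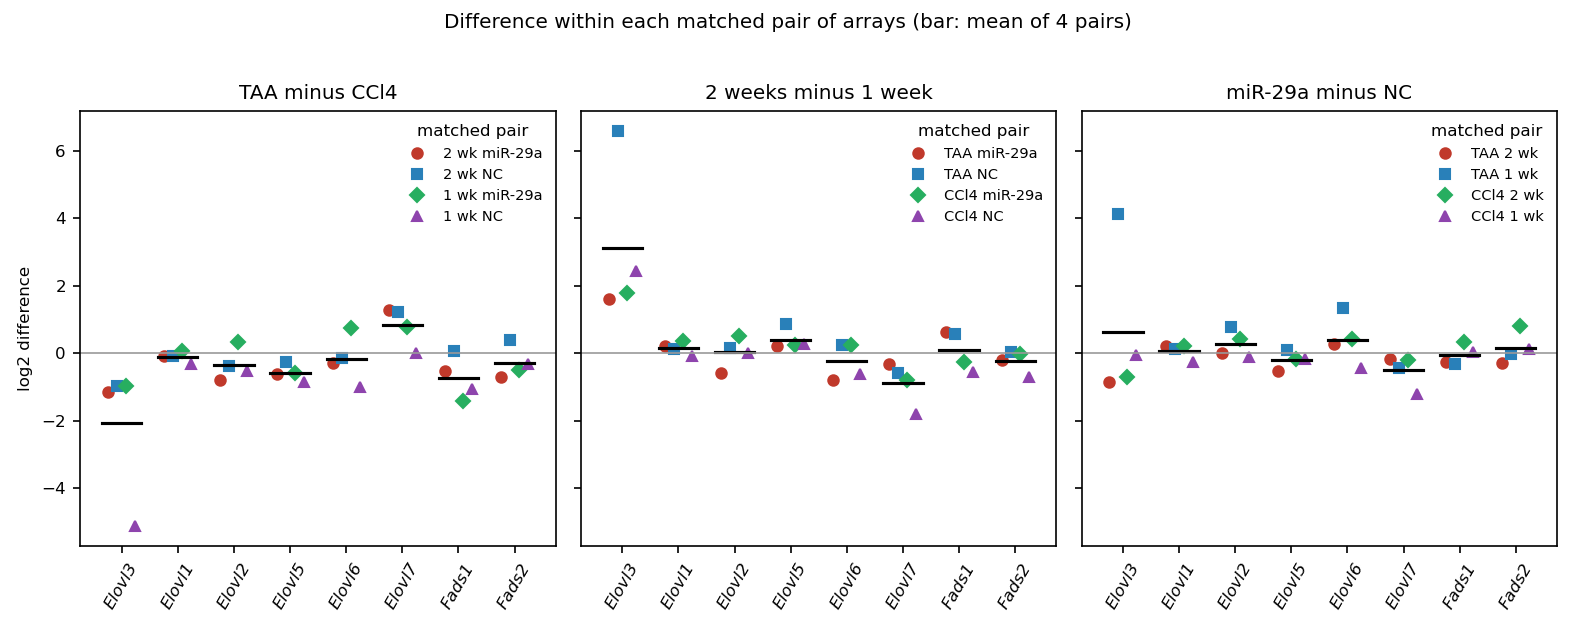
Log2 difference within each of the 4 matched pairs of arrays, for Elovl3 and the other 7 members, in the 3 comparisons, with bars at the mean of the 4 pairs. Elovl3 lies above 0 in every pair between the weeks (1.61 to 6.58), and 1 pair, the one that holds the TAA 1-week NC array, lies far from the other 3 in each comparison.

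The third comparison asks what miR-29a did relative to the control oligonucleotide. For Elovl3 the answer differed by pair. With miR-29a it was 0.87 and 0.70 lower at 2 weeks in TAA and CCl4 livers (differences of −0.87 and −0.70), nearly level at 1 week in CCl4 livers (−0.05), and 4.11 higher at 1 week in TAA livers. The mean was 0.62 ± 0.90, and it turned to −0.50 with the TAA 1-week NC array left out and to −0.54 with that whole pair left out. The sign of the mean thus rested on 1 pair. Elovl7 was lower with miR-29a in both TAA pairs (−0.17 at 2 weeks and −0.44 at 1 week), and in CCl4 livers it was well above background on neither array of 2 weeks and on the NC array alone of 1 week. Elovl6 was higher with miR-29a in 3 pairs, by 0.28 to 1.33, and lower in the CCl4 1-week pair (−0.43), with a mean of 0.40 ± 0.27. Elovl2 had a mean of 0.27 ± 0.19, Elovl5 of −0.20 ± 0.15, Fads2 of 0.16 ± 0.20, Elovl1 of 0.06 ± 0.13 and Fads1 of −0.06 ± 0.25. With arrays or pairs left out, the means of Elovl6 and Elovl2 ran from 0.09 to 0.68 and from 0.09 to 0.42. By limma 0 of 8 members and 0 of 18534 features (0%) were called, and at an unadjusted p of 0.05 it was 0 members and 2.83% of features. The terms for a different effect of miR-29a by agent or by week called 0 features (0%) each, with 1.39% and 1.92% at an unadjusted p of 0.05.

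Within the family, levels varied together in some pairs of genes and not in others. These are descriptions over the 8 arrays, which share 1 slide and the same 3 factors. Elovl3 and Elovl5 had r 0.82 (rho 0.88), and 0.70 without the TAA 1-week NC and CCl4 2-week NC arrays, which lie farthest from the Elovl3 median. Elovl2 and Elovl6 had r 0.77 (rho 0.86) and 0.73 without the same arrays. Elovl5 and Fads1 had r 0.75 (rho 0.57) and 0.85, and the 2 desaturases had r 0.64 (rho 0.76) and 0.78. Elovl3 and Elovl6 had r 0.24 (rho −0.10), which turned to −0.67 without those arrays.

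Promoter windows of 300 bases, from 250 before to 50 after a RefSeq start (GRCm38.p6), were at hand for 6 members: Elovl1, Elovl2, Elovl5, Elovl6, Elovl7 and Fads2. The windows of Elovl5, the member most like Elovl3, and of Elovl6, the most lipogenic one, are shown because their levels took different courses. In the Elovl5 window (chr9:77917115-77917414, plus strand) capitals mark CACGTG, the E-box of the clock and of other basic helix-loop-helix factors, and ATTGG, the reverse complement of the CCAAT box. In the Elovl6 window (chr3:129532136-129532435, plus strand) capitals mark TGACCT, the reverse complement of AGGTCA, the core site of nuclear receptors.
Elovl5: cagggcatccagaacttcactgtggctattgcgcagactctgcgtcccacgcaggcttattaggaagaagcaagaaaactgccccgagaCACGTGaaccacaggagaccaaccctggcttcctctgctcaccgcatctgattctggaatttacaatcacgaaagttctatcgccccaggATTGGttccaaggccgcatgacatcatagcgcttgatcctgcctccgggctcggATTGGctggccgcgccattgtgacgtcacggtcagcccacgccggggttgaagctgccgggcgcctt
Elovl6: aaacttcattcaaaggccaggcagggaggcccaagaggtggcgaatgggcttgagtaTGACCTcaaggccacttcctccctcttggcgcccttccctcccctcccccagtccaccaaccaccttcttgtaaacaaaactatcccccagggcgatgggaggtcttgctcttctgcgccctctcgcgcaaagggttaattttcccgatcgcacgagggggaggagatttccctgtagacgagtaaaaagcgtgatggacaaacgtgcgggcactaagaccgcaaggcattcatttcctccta
Both strands were searched for the E-box CACGTG, the nuclear receptor core AGGTCA, the box CCAAT and the STAT spacing TTCNNNGAA, and no match in these windows overlaps another. Elovl5 held CACGTG once, 161 bases before the start, and CCAAT at 71 and 17 bases before it. Elovl6 held AGGTCA once, 193 bases before the start. Of 32851 promoter windows, 7.15% held CACGTG, 16.3% AGGTCA, 37.4% CCAAT and 8.3% TTCNNNGAA. A match is a string of letters and does not show binding.

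The genes whose levels over the 8 arrays were most like those of Elovl3 were taken from 2001 genes well above background on all arrays with an SD of at least 0.5. The closest was Pde9a, a cyclic GMP phosphodiesterase, with r 0.98 and rho 1, and 0.94 without the 2 arrays farthest from the Elovl3 median. Leap2, an antimicrobial peptide and ghrelin receptor antagonist made by liver, had r 0.98 (rho 0.93, then 0.87). Acaa1b, a peroxisomal thiolase, had 0.97 (0.90, then 0.83), and Akr1c19, an aldo-keto reductase, 0.96 (0.86, then 0.81). The fatty acid omega-hydroxylases Cyp4a10, Cyp4a31, Cyp4a12a and Cyp4a12b had r 0.95, 0.95, 0.95 and 0.95, and 0.92, 0.93, 0.70 and 0.71 without those arrays. Sucnr1, the succinate receptor, and Gclc, of glutathione synthesis, complete the 10 with r 0.95 each.

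The level of Cyp4a10 was 7.27, 7.32, 6.79 and 4.22 in TAA livers (miR-29a then NC at 2 weeks, miR-29a then NC at 1 week) and 7.35, 7.50, 7.18 and 7.03 in CCl4 livers. It thus shared with Elovl3 the low TAA 1-week NC array and nearly the same order of the rest (rho 0.976), over a smaller range. The most opposite genes were Slc13a5, a citrate transporter (r −0.97, and −0.87 without the 2 arrays), Mdk, Map3k6, A2ml1 and Haus8. Slc13a5 had 3.36 on the TAA 1-week NC array and −0.78 to 0.14 on the other 7. For Elovl6 the closest of 2002 genes was Abca8a (r 0.77), but its r was 0.10 without the 2 TAA 1-week arrays, whereas Lpin2, a phosphatidate phosphatase, kept r 0.84 without them (0.77 with them).

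**Figure D3:**
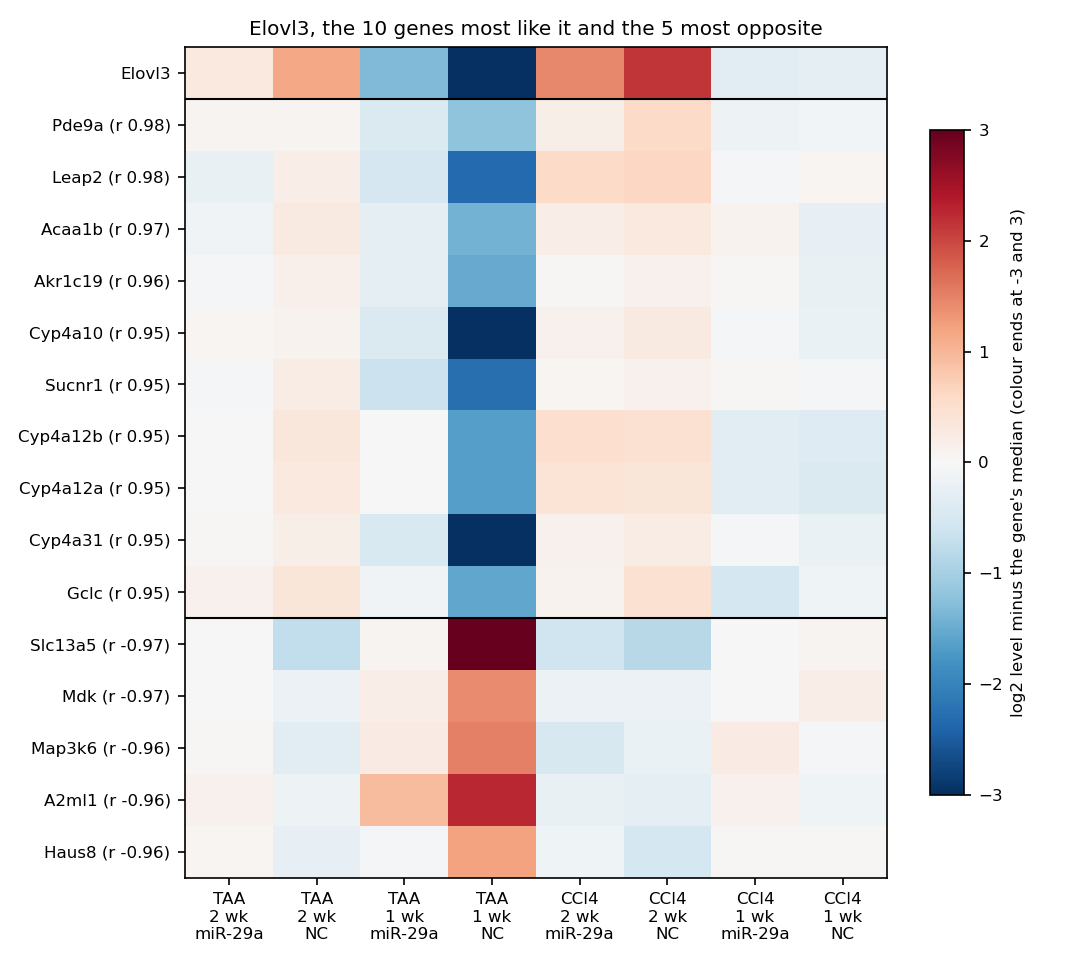
Log2 level minus the gene's own median over the 8 arrays, for Elovl3 (top), the 10 genes with the highest r to it and the 5 with the lowest, with colour ending at −3 and 3. All 10 are lowest and all 5 opposite ones highest on the TAA 1-week NC array, and outside that array their spread is smaller than that of Elovl3.

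The rest of the elongation machinery was measured in 6 of 8 genes: Tecr, Hsd17b12 and the 4 genes Hacd1, Hacd2, Hacd3 and Hacd4. Tecrl and Elovl4 were under the detection filter. In the 3 comparisons over all arrays 0 of the 6 were called. At an unadjusted p of 0.05 there were 2, both lower in TAA livers, beside 19.7% of all features. At 1 week, 0 were called higher and 2 lower in TAA livers, beside 12.6% and 23% of all features. Tecr, the reductase of the last step, had 4.29 and 4.32 in TAA livers (miR-29a, NC) and 5.09 and 5.06 in CCl4 livers, and fell by 0.76 ± 0.12 (adjusted p = 0.00965). Hacd2, a dehydratase of the third step, had 3.59 and 3.42 in TAA livers and 4.36 and 4.53 in CCl4 livers, and fell by 0.95 ± 0.16 (adjusted p = 0.0104). The list's median was −0.52, against −0.16 over all features, and 2 were called also with the TAA 1-week NC array left out, where 12.3% of all features were called higher and 18.2% lower. At 2 weeks Tecr had 4.87 and 4.97 in TAA livers and 4.66 and 4.61 in CCl4 livers, and its agent by week term of 1.05 was past the threshold.

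Of the other desaturases and their electron donors, 9 of 11 were measured, and 0 were called over all arrays. Between the agents 3 had an unadjusted p under 0.05. Of these, 1 was higher and 2 were lower in TAA livers, beside 9.02% and 19.7% of all features. At 1 week, 1 was called higher and 3 lower in TAA livers, beside 12.6% and 23% of all features. Scd2, a stearoyl-CoA desaturase that adult liver normally makes little of, had 2.44 and 4.38 in TAA livers (miR-29a, NC) and 0.30 and 0.79 in CCl4 livers, and rose by 2.87 ± 0.53 (adjusted p = 0.0136). At 2 weeks it had 2.00 and 1.70 in TAA livers and 0.06 and 0.19 in CCl4 livers, so that all 4 TAA arrays were above all 4 CCl4 arrays. Scd1, the main liver isoform, differed by −0.81 ± 0.28 at 1 week and was not called. Degs1, the dihydroceramide desaturase, fell by 0.90 ± 0.13 (adjusted p = 0.00669), Scd3 by 0.91 ± 0.19 and the cytochrome b5 reductase gene Cyb5r3 by 0.68 ± 0.15. It was also 1 higher and 3 lower with the TAA 1-week NC array left out.

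Fatty acid synthesis and its regulators were measured in 19 of 20 genes, with 0 called higher and 4 lower at 1 week, beside 12.6% and 23% of all features. The citrate carrier gene Slc25a1, Scap, Insig2 and Pklr fell by 0.67 ± 0.14, 0.69 ± 0.16, 1.16 ± 0.28 and 1.31 ± 0.34. The median was −0.07, and with the TAA 1-week NC array left out 3 were called higher and 1 lower. With quantile normalization the split also turned, to 2 higher and 0 lower. With miR-29a, Srebf1, which encodes SREBP-1c, was higher in 4 of 4 pairs (0.82 ± 0.30), beside 10.3% of all features. Its levels in TAA livers were 2.86 and 1.96 (miR-29a, NC) at 2 weeks and 3.98 and 2.32 at 1 week. In CCl4 livers they were 2.73 and 2.26 at 2 weeks and 2.45 and 2.19 at 1 week. Neither Srebf1 nor any other gene was called for miR-29a. Of the users of very long and polyunsaturated chains, 20 of 22 were measured, and at 1 week 1 was called higher and 4 lower, beside 12.6% and 23% of all features. Lpcat3, which puts polyunsaturated chains into phospholipids, fell by 1.08 ± 0.15 (adjusted p = 0.00709). Cers6, a ceramide synthase, rose by 1.21 ± 0.19. With the TAA 1-week NC array left out, 1 was called higher and 5 lower.

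Gene groups of fatty acid use, sex and daily rhythm in liver were read beside Elovl3. Of 18 PPAR-alpha target genes, 0 were called higher and 7 lower in TAA livers at 1 week, beside 12.6% and 23% of all features. Their median was −0.89, against −0.16 over all features. Leaving out the TAA 1-week NC array gave 3 lower and a median of −0.55. Acot1, an acyl-CoA thioesterase, had 2.94 and 0.48 in TAA livers (miR-29a, NC) and 4.78 and 4.56 in CCl4 livers, and fell by 2.96 ± 0.72 (adjusted p = 0.029). Plin2, a lipid droplet protein, fell by 1.24 ± 0.26 and Acadl, a dehydrogenase of beta-oxidation, by 1.07 ± 0.17. Acot2 was called lower as well, with neither TAA array of 1 week well above background. Over the 8 arrays 17 of the 18 had a positive r with Elovl3 (median 0.756), against 11380 of 18533 features (median 0.246). Without the 2 arrays farthest from the Elovl3 median these medians were 0.372 and 0.0241.

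Of 17 measured genes with higher expression in male liver, 0 were called higher and 4 lower at 1 week, beside 12.6% and 23% of all features, with a median of −0.68 against −0.16 over all features. The count was 3 lower and the median turned to 0.07 when the TAA 1-week NC array was left out. Slco1a1, an organic anion transporter, had 0.47 and −2.97 in TAA livers at 1 week (miR-29a, NC), with 1 of the 2 arrays well above background, and 3.07 and 3.06 in CCl4 livers. It was called lower in TAA livers (adjusted p = 0.0176), and no size is given because 1 TAA array was not well above background. Cyp2d9 and Cyp2u1, both cytochromes P450, fell by 1.67 ± 0.30 and 1.06 ± 0.15. Of 10 genes of growth hormone and androgen signalling, 1 was called higher and 5 lower, beside 12.6% and 23% of all features. Cish, a feedback inhibitor induced by STAT5, rose by 3.05 ± 0.45 (adjusted p = 0.00752), and Bcl6, a repressor that opposes STAT5, fell by 2.71 ± 0.31 (adjusted p = 0.00498). Leaving out that TAA NC array gave 1 higher and 3 lower. Igf1, Ghr and Stat5b, like Bcl6, were lower in TAA livers in 4 of 4 pairs, beside 27.1% of all features. Socs2 had 1.46 and 0.85 in TAA livers at 1 week (miR-29a, NC) and 1.16 and 1.06 in CCl4 livers. The r with Elovl3 was −0.833 for Cish and 0.685 for Bcl6. Without the 2 arrays farthest from the Elovl3 median it was −0.766 and 0.438.

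Some clock genes varied with Elovl3 over the arrays. Clock itself had r 0.868 (rho 0.976) with Elovl3, and 0.835 without the 2 farthest arrays. Arntl, its partner in the activator complex, had −0.26, 1.15, −3.14 and −2.52 in TAA livers (miR-29a then NC at 2 weeks, miR-29a then NC at 1 week) and −0.23, 2.01, −1.92 and 0.83 in CCl4 livers, with r 0.729 (then 0.713) and 7 of 8 arrays well above background. Per1 and Per2, repressors of that complex, had r −0.755 and −0.657. Arntl was thus lower with miR-29a in 4 of 4 pairs, beside 5.69% of all features. No mean is given because 1 TAA 1-week array was not well above background. Dbp, an output gene of the clock, was higher in 4 of 4 (1.69 ± 0.37), beside 10.3% of all features. Neither was called. Of 16 measured clock genes, 1 (2 with quantile normalization) was called higher in TAA livers at 1 week (Per3) and 3 (2 with quantile normalization) were lower, namely Arntl, Nr1d1 (−1.92 ± 0.20) and Clock (−0.78 ± 0.22), beside 12.6% and 23% of all features. When the TAA 1-week NC array was left out, 0 were higher and 1 was lower. Per3 was well above background on 1 of the 2 CCl4 1-week arrays, and Arntl on 1 of the 2 TAA ones. The hour of collection is not known here. Its part in the levels of Elovl3 and in the clock gene differences between groups was not tested.

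**Figure D4:**
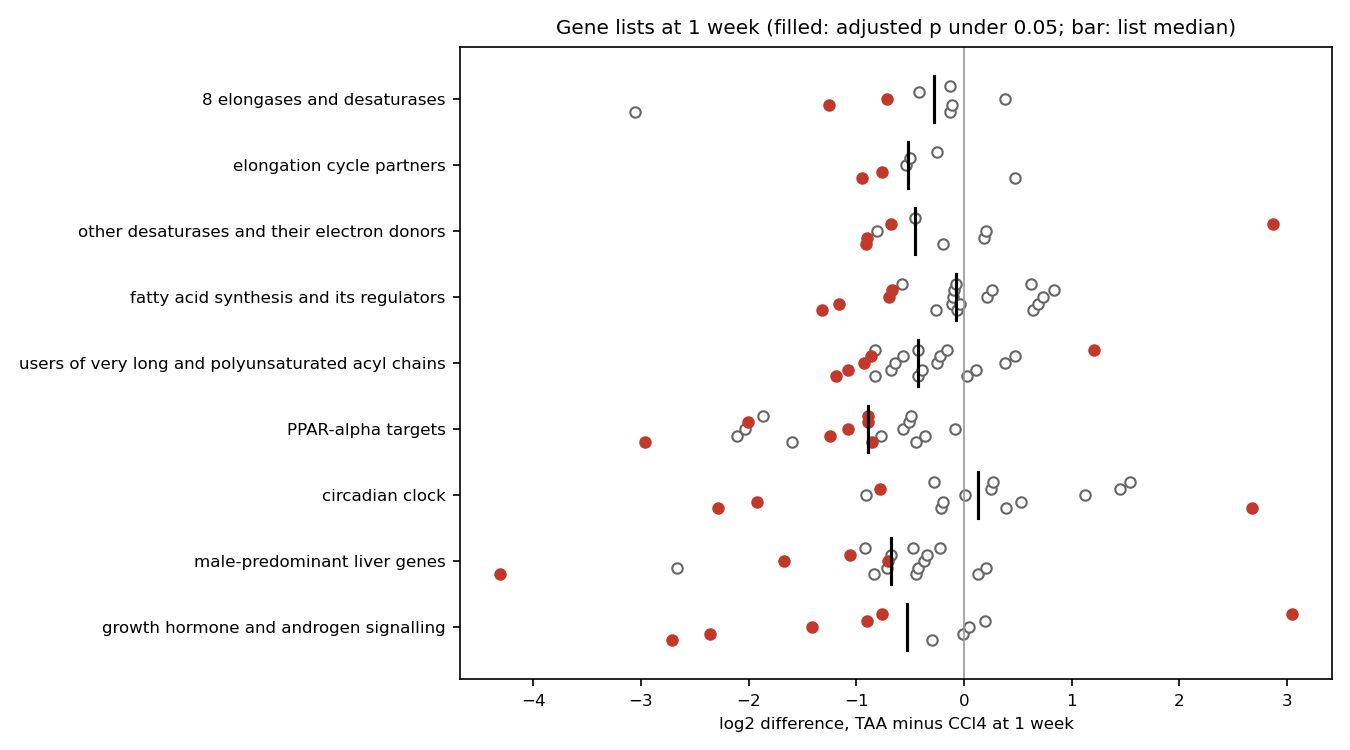
Log2 difference between TAA and CCl4 livers at 1 week for the 8 members and the genes of 8 lists, 1 point per gene, filled where the adjusted p was under 0.05, with bars at the medians. Among the members the filled points are Fads1 (−1.25) and Elovl5 (−0.72), and Elovl3 (−3.06) is the open point furthest left.

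Markers of other cells stood apart on the array with the least Elovl3. On the TAA 1-week NC array, where Elovl3 was lowest, the acute phase, neutrophil and Kupffer cell sums given above were highest, and the sum of 7 infiltrating macrophage markers was 17.2, against 4.89 to 9.86 on the other 7. The sum of 9 hepatocyte markers was lowest there as well, at 6656 against 6809 to 8783, and that of 10 stellate cell and myofibroblast markers, at 134.9, lay within the range of the other 7 (113.8 to 174.3). Over the 8 arrays the 12 acute phase genes had a median r of −0.836 with Elovl3 and the 8 Kupffer cell genes one of −0.837. Without the 2 arrays farthest from the Elovl3 median these were −0.14 and −0.284. Their part in the Elovl3 level was not tested. Elovl3 is also expressed in fat, and of 8 adipocyte markers 6 or 7 were not well above background on each array, Adipoq, Plin1 and Lep among them on all 8. Fabp4, a fatty acid binding protein of fat and macrophages, was well above background on all 8, with r 0.713 to Elovl3 (−0.158 without the 2 farthest arrays). It was lower in TAA livers in 4 of 4 pairs (−0.77 ± 0.24), beside 27.1% of all features. Cfd was well above background on 3 CCl4 arrays. The sum of the 8 markers was lowest, at 2.79, on the TAA 1-week NC array, where Elovl3 was lowest. It was highest, at 7.51, on the CCl4 2-week NC array, where Elovl3 was highest. The mean log2 level of the same 8 markers, most of them not well above background, did not follow that order. It was highest on the TAA 1-week NC array (−3.63), against −3.87 on the CCl4 2-week NC array. The part of fat in the Elovl3 level was not tested.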

How the data were processed

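RNA of 8 mouse livers was hybridised to 1-colour Agilent arrays. Per the file headers, the deposited scanner files hold spot intensity as the processed signal of Agilent Feature Extraction 10.10.1.1, background-subtracted by that software. The deposited value table holds log2 values, and each array's column equalled the log2 processed signal minus a constant (100% of values within 0.01). How the authors chose that constant is not given in the sources used here. Column medians were −3.57, −3.73, −3.47 and −3.46 for TAA (miR-29a then NC at 2 weeks, miR-29a then NC at 1 week) and −3.81, −3.87, −4.07 and −4.04 for CCl4 in that order.

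Here, control and outlier-marked spots were left out, spots of 1 probe were averaged, the log2 processed signal was taken minus each array's 75th percentile, and each gene was read from its brightest probe. Of 55681 probes 55657 were kept, of which 27641 were named by accession, 3400 by symbol and 321 by an older symbol, and 24295 kept the file's name. Features well above background on at least 4 of 8 arrays were tested with limma 3.58.1 in R 4.3.3. Agent, week and oligonucleotide entered as additive terms, and interactions were added 1 at a time. With 1 array per group, p-values measure only the spread between these arrays. The script was tested on simulated data.

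The members and gene lists were chosen with earlier results of these data known. Genes like Elovl3 or Elovl6 were the 10 and 5 with the highest r, and the 5 with the lowest for Elovl3. From each list the rule named up to 3 called genes of the largest difference. The further list genes given with values, such as Srebf1, Scd1, Slc25a1, Cyb5r3, Acadl, Igfals, Clock, Per1, Per2, Dbp and Gpam, were chosen after their values were seen. Some list genes that the rule named are not reported here. Alternatives were normexp background correction (offset 50), quantile and median scaling, the deposited values, other filters, the mean of probes, and arrays or pairs left out. Those for single weeks, single agents and lists were added after seeing the data. The number of arrays limits the precision.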

Additional observations from a re-analysis of the deposited data

Results flagged for a closer look

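Fads2 on the CCl4 2-week NC array, at a log2 level of 2.786, lay apart from the other 3 CCl4 arrays, which ran from 3.485 to 3.616. The gap to the nearest was 0.842 of the whole range of the 4 arrays, above the critical value of Dixon's test for 4 values. These 4 arrays differ in week and oligonucleotide and are not replicates. The test therefore cannot tell an outlying array from a difference between conditions, and no conclusion is drawn from it. Chance puts about 1 in 20 such sets of arrays past that value, and the number of sets screened is not given here. The second, dimmer Fads2 probe was also lowest on the CCl4 2-week NC array, at 0.73, against 1.15 to 1.56 on the other 3.

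The miR-29a minus NC difference of Fads1 had opposite signs after the agents, with a difference between them of −0.484 on the log2 scale. It was −0.276 and −0.324 in TAA livers and 0.331 and 0.0373 in CCl4 livers, at 2 weeks and 1 week. The brightest probe of Fads2 showed the same split, with a difference of −0.6328. It had −0.280 and −0.0418 in TAA livers and 0.812 and 0.131 in CCl4 livers. The second, dimmer Fads2 probe did not show it, with −0.50 and 0.29 in TAA livers and 0.54 and 0.41 in CCl4 livers. The 0.0373 of Fads1 and the −0.0418 of Fads2 are small beside the SE of their means over all pairs, 0.25 and 0.20. All 8 members were screened for such splits, and the share of all features with one is not given here. The oligonucleotide by agent term in limma had an adjusted p = 1 for both genes, so neither difference passed its test.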

How the results depend on the processing

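The 24 member contrasts (8 genes, 3 comparisons) kept their sign in 428 of 453 alternative values, and 16 of the 24 kept it in every alternative run. The mean TAA minus CCl4 difference of Elovl3 ran from −3.06 to −0.94 and its difference between the weeks from 1.98 to 4.09. Its miR-29a minus NC difference ran from −0.54 to 1.24 and changed sign without the TAA 1-week miR-29a array (−0.0041), the TAA 1-week NC array or that pair. Less the median paralogue, the 3 ranges were −2.92 to −0.66, 2.03 to 4.18 and −0.59 to 1.17.

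Counts of called features depended more on the setting. With normexp they were 6 (TAA minus CCl4), 3430 (agent by week) and 2555 (weeks in TAA). Quantile normalization gave 11 (TAA minus CCl4) and 0 (weeks in CCl4). Scaling on the array median gave 5489 (TAA minus CCl4), 3439 (agent by week), 11794 (1 week), 762 (weeks in TAA) and 307 (weeks in CCl4). It moved the median TAA minus CCl4 difference of all features to −0.52, against −0.13 as reported, −0.048 with quantile normalization and 0.18 with no filter. With no filter the counts were 0 (agent by week), 3884 (1 week), 11 (2 weeks), 6 (weeks in TAA) and 1 (weeks in CCl4). At 1 week, scaling on the array median called 15 of 18 PPAR-alpha targets, 15 of 20 users of long chains, 11 of 19 fatty acid synthesis genes, 9 of 17 male-predominant genes, 7 clock genes and 5 elongation partners lower in TAA livers. In that setting 11794 of 18534 features were called in either direction, and the median of all features was −0.75. Nothing about the lists is read from these counts. The filter on all 8 arrays gave 6 (TAA minus CCl4) and 819 (weeks in TAA).

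With single arrays or matched pairs left out in turn, calls ran from 0 to 5229 (TAA minus CCl4), 0 to 505 (weeks), 0 to 2381 (agent by week), 1764 to 7444 (1 week), 0 to 847 (weeks in TAA), 0 to 505 (weeks in CCl4) and 0 to 0 (miR-29a). Leaving out matched pairs gave 5229 (TAA minus CCl4) and 0 (weeks in CCl4) without the TAA 2-week pair, 505 (both week contrasts) without the TAA 1-week pair, and 4342 (TAA minus CCl4 and 1 week) without the CCl4 2-week pair. The cause of these moves was not tested. The agent by week term could not be estimated with a pair left out, and the slide could not be used as a block because there was 1. With each agent and week as a block, miR-29a gave 0 calls in limma, 1112 at an unadjusted p of 0.05. Elovl7 was limited by signal, with 5 of 8 arrays well above background.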

Other observations

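Other liver gene groups were also compared between the agents at 1 week. Of 11 measured cell cycle genes, 5 were called higher and 0 lower in TAA livers, beside 12.6% and 23% of all features. Their median difference was 1.11, against −0.16 over all features, and 4 were called higher without the TAA 1-week NC array. Mki67, a marker of cycling cells, rose by 1.87 ± 0.28 (limma, adjusted p = 0.00797), and Ccna2 and Birc5 rose by 1.91 ± 0.43 and 1.37 ± 0.21. Igfals, which encodes the acid-labile subunit that carries insulin-like growth factors, fell by 1.41 ± 0.15 (limma, adjusted p = 0.00481). Of 5 measured genes with higher expression in female liver, 0 were called in limma. At an unadjusted p of 0.05, 1 was higher and 1 lower, beside 17.6% and 30.7% of all features.

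With miR-29a, 9 of 16 clock genes were higher and 2 lower than with NC at an unadjusted p of 0.05. Of all features it was 1.66% and 1.17%, and 0 clock genes were called in limma. With 1 array per group and the hour of collection unknown, hour and oligonucleotide cannot be told apart in these genes. Among the 9, Per3 was well above background on 5 of 8 arrays and Ciart on 6. Among the 2 lower ones, Arntl was so on 7. Of 19 measured fatty acid synthesis genes, 16 were higher and 3 lower with miR-29a. Their median difference was 0.18, against 0.03 over all features. Thrsp, Fasn and Gpam differed by 1.00 ± 0.31, 0.58 ± 0.24 and 0.53 ± 0.14. Gpam was higher in 4 of 4 pairs, beside 10.3% of all features. Insig2 and Acss2 were lower, by −0.58 ± 0.24 and −0.39 ± 0.17.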
